A study of Mus musculus with 8 samples.

Results

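The insulin-like growth factor (IGF) genes described here are the ligands *Igf1* and *Igf2*, the receptor *Igf1r* and the 7 binding-protein genes *Igfbp1* to *Igfbp7*, 10 of the 49315 Ensembl genes counted in each library. The family was chosen on the measured difference between wild-type and Tbx20EH1Mut hearts, so that difference is given for its members as a description, with no p-value, and calls from the fit over all genes are counted without support being drawn from them. All 10 genes were found by symbol. The data are RNA-seq counts from whole mouse hearts dissected at embryonic day (E) 9.5, with 4 libraries from wild-type embryos and 4 from Tbx20EH1Mut embryos, each made from 3 pooled hearts. Tbx20EH1Mut embryos are homozygous for a germline allele in which adjacent phenylalanine and serine residues of the Tbx20 engrailed homology 1 (EH1) motif are replaced by leucine and isoleucine, a change made to disrupt binding of the TLE corepressors to this T-box transcription factor. The allele is carried by every cell of the embryo, no other allele or treatment is given for either group, and the sources used here do not say whether the pools came from separate litters, so each spread is one between pools.

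IGF1 and IGF2 are secreted peptides that drive growth and survival through the receptor tyrosine kinase IGF1R, which signals through insulin receptor substrates to PI3K, AKT and TOR. IGF2 is the main growth-promoting ligand of the embryo and its gene is imprinted, with expression mostly from the paternal copy. The secreted IGF-binding proteins hold the ligands outside the cell, prolong their life and can limit or present them to the receptor. In the embryonic heart, IGF2 from the epicardium and endocardium is known to promote cardiomyocyte proliferation.

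In Tbx20EH1Mut hearts *Igf2* was lower, at 0.634 times its wild-type mean, while the receptor *Igf1r* was 1.93 times higher. Among the binding proteins *Igfbp3* stood 7.80 times and *Igfbp2* 2.67 times above their wild-type means. *Igf1*, *Igfbp4*, *Igfbp5* and *Igfbp7* overlapped between the genotypes, and *Igfbp1* and *Igfbp6* were counted only at very low levels. Because the libraries come from whole hearts, fewer cells of a type and less RNA per cell cannot be told apart.

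Positions are those of the mouse genome build GRCm38. *Igfbp3* (chromosome 11, 7206086 to 7213923, minus strand) and *Igfbp1* (chromosome 11, 7197782 to 7202546, plus strand) have their 3′ ends facing each other across 3539 bases with no annotated gene between them. *Igfbp2* (chromosome 1, 72824503 to 72852474, plus strand) and *Igfbp5* (chromosome 1, 72857932 to 72874884, minus strand) have the same arrangement across 5457 bases. The promoters of the first pair are shown because *Igfbp3* had the largest fitted log2 fold change of the 9 tested members. Its neighbour *Igfbp1* was barely counted. Each is the 250 bases before the RefSeq transcription start (GRCm38.p6), written 5′ to 3′ on the strand of its gene, with CG dinucleotides in capitals. The *Igfbp3* promoter lies at chr11:7213924-7214173 (minus strand) and the *Igfbp1* promoter at chr11:7197537-7197786 (plus strand).

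Igfbp3: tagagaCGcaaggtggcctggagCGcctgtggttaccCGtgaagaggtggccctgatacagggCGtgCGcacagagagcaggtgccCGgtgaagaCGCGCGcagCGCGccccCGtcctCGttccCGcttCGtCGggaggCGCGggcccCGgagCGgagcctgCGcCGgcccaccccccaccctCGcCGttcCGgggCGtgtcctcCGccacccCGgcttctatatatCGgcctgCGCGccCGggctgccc

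Igfbp1: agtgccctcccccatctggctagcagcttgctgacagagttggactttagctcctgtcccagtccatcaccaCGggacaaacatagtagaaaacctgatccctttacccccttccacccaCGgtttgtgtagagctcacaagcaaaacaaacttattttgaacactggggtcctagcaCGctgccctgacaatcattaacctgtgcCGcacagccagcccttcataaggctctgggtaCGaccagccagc

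The *Igfbp3* window held 32 CG dinucleotides and 73.2% G and C, and 4.58% of the 32851 RefSeq promoter windows of this length held as many. The *Igfbp1* window held 5 CG dinucleotides and 53.2% G and C, close to the median of all promoters, 6 and 52.4%. The other promoter shown is that of *Igfbp2* at chr1:72824230-72824479 (plus strand), the member window in which the core of the hypoxia response element, ACGTG, was found on both strands. The copies overlap as CACGTG, which is in capitals, with their first bases 142 and 141 bases before the start.

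Igfbp2: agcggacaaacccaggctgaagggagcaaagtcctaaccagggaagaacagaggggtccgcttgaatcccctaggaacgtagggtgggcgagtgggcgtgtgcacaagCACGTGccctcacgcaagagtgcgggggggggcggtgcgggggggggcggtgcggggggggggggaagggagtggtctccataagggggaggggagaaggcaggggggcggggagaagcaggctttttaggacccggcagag

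On either strand ACGTG was found in 3 of the 14 promoter windows of the members (1 each of *Igf2*, *Igfbp2* and *Igfbp7*) and in 16.6% of all 32851 windows. AGGTGT, the core letters of the motif bound by T-box factors, was found on either strand in 0 of the 14 windows and in 11.8% of all. TATAAA was found in 2 member windows, of *Igfbp4* and *Igfbp6*, and in 12.4% of all. These are matches of letters in a short window and say nothing about binding.

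For the libraries as a whole, 33359322 to 49523086 counts fell on genes in wild-type and 36250675 to 38357025 in Tbx20EH1Mut hearts. Levels below are counts per 1000000 of the TMM-scaled library size (CPM). *Tbx20* itself lay between 353 and 379.6 CPM in wild-type and between 215 and 317 CPM in Tbx20EH1Mut hearts (log2 fold change -0.46, standard error 0.133, edgeR adjusted p = 0.0273), and its adjusted p exceeded 0.05, at 0.063 to 0.0726, without wild-type replicate 3 or 4 or Tbx20EH1Mut replicate 1 or 2 and, at up to 0.200, in 3 of 10 alternatives with all libraries. The first principal component took 48.1% of the variance and set the genotypes apart, with wild-type replicate 1 at -14.9 and the other wild-type libraries between -72.1 and -60.8. All 10 cardiomyocyte markers were counted in every library, and their summed level was 33706 to 39213 CPM in wild-type and 30162 to 42610 CPM in Tbx20EH1Mut hearts (exact two-sided permutation test, p = 0.6).

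Of the 10 members, 9 passed the filter on low counts and *Igfbp1* did not. In the fit over 17163 genes, 29.3% of genes were called different between the genotypes at an adjusted p of at most 0.05, 14.0% higher and 15.3% lower in Tbx20EH1Mut hearts. The calls included 4 members, *Igf1r*, *Igfbp2* and *Igfbp3* on the higher side and *Igf2* on the lower side. At 30.5% of all genes tested the libraries of the genotypes did not overlap, and this held for 5 members, the same 4 and *Igfbp6*. With a further requirement, a log2 fold change of 1 or more in either direction, 10.8% of genes were called, among them *Igfbp2* and *Igfbp3*. Because this contrast chose the family, nothing is read from these counts. The median log2 fold change was 0.37 over the 9 members and 0.00 over all genes tested.

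**Figure D1:**
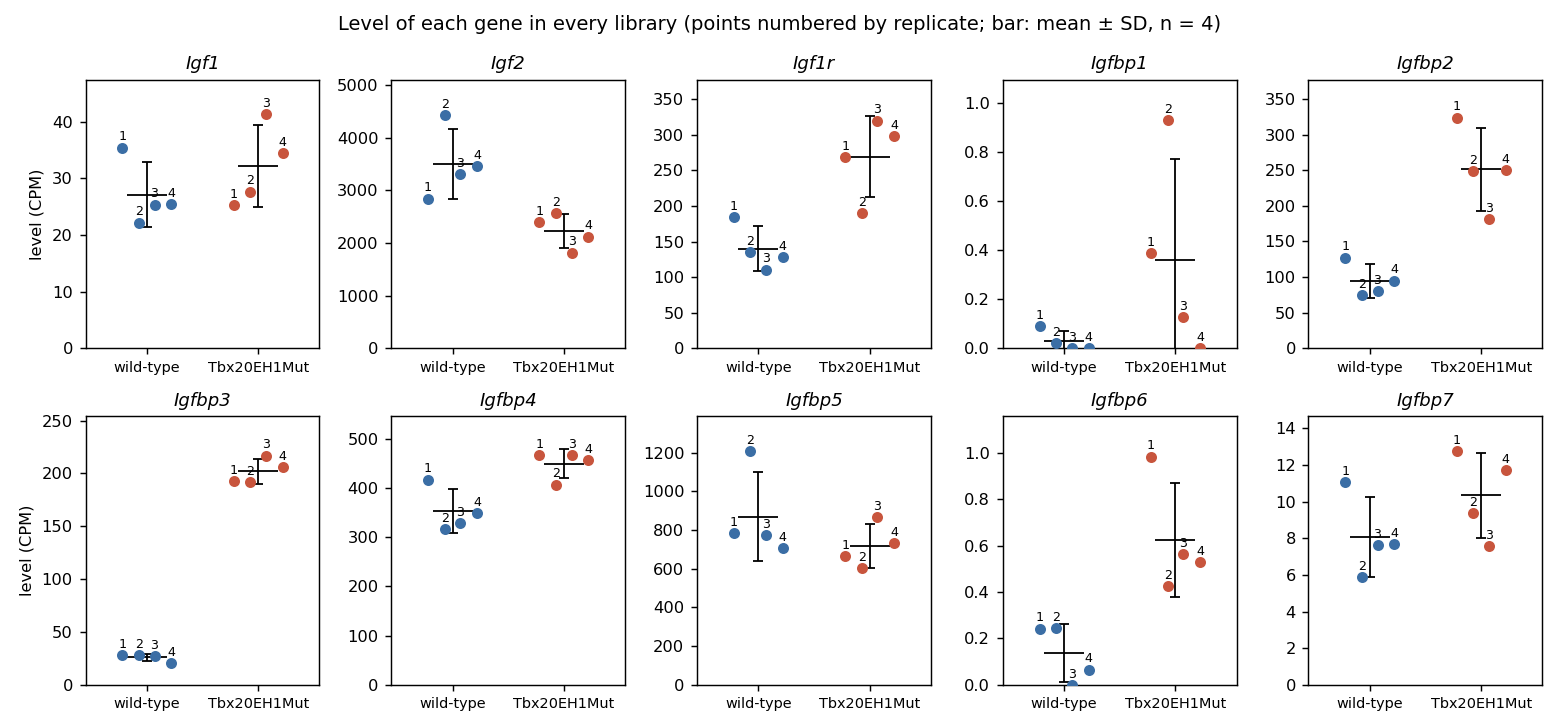
Level of each IGF gene in CPM (counts per 1000000 of the scaled library size, linear axis from 0) in the 4 wild-type (blue) and 4 Tbx20EH1Mut (red) libraries, numbered by replicate. Horizontal bars are means and whiskers the SD (n = 4), with the lower whisker of Igfbp1 reaching below the axis. Igfbp3 shows the largest ratio between the group means among the genes well above 1 CPM, 20.4 to 28.4 CPM against 192 to 217 CPM, and Igf2 is the one gene of the family with all Tbx20EH1Mut libraries below all wild-type libraries.

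*Igf2* (chromosome 7, 142650766 to 142666816, minus strand) was the most abundant member. Its level over wild-type replicates 1 to 4 was 2844, 4426, 3304 and 3463 CPM, and over Tbx20EH1Mut replicates 1 to 4 it was 2395, 2565, 1815 and 2119 CPM. The genotypes did not overlap, although wild-type replicate 1, the lowest of its group, was close to Tbx20EH1Mut replicate 2, the highest of its group. The means were 3509 ± 665 and 2224 ± 328 CPM (SD, n = 4 each), and the fitted log2 fold change was -0.66 (standard error 0.169). Leaving out 1 library at a time gave -0.75 to -0.51, and without Tbx20EH1Mut replicate 4 the gene was no longer called. With foregut epithelium markers, which themselves differed with genotype, as a covariate the log2 fold change was -1.09.

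Genes around *Igf2* were counted as well. *H19*, the imprinted non-coding RNA that lies 72622 bases away and is expressed from the maternal copy, was 6579 ± 581 CPM in wild-type and 4686 ± 578 CPM in Tbx20EH1Mut hearts (log2 fold change -0.49, standard error 0.137, edgeR adjusted p = 0.0243), with no overlap between the genotypes. It kept its direction in every fit run, and its adjusted p exceeded 0.05, at 0.0539 to 0.0817, without replicate 3 or 4 of either genotype and, at up to 0.0656, in 3 of the 10 alternatives that kept all libraries. *Ins2*, an insulin gene 11839 bases from *Igf2*, was at or below 0.091 CPM in every library and was not tested. The antisense gene *Igf2os* shares 98 exon bases with *Igf2*, 1.71% of the exon length of *Igf2*, and fell from 89.2 ± 12.7 to 36.2 ± 7.01 CPM (log2 fold change -1.30, edgeR adjusted p = 0.000601). Since the strand setting of the counting is not given in the sources used here, reads in the shared bases cannot be assigned, but over all libraries *Igf2os* had 21505 counts beside 962678 for *Igf2*.

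*Igf1* (chromosome 10, 87858265 to 87937042, plus strand), the ligand best known for growth after birth, was present at a much lower level. It measured 35.4, 22.2, 25.4 and 25.4 CPM over wild-type replicates 1 to 4 and 25.3, 27.7, 41.4 and 34.5 CPM over Tbx20EH1Mut replicates 1 to 4. The groups overlapped widely, with wild-type replicate 1 above 3 of the 4 Tbx20EH1Mut libraries. The log2 fold change was 0.25 (standard error 0.189), 0.11 to 0.40 with 1 library left out and 0.69 with foregut markers as a covariate. Per length of exon, *Igf1* made up 0.289 to 0.715% of the summed ligand level in wild-type and 0.607 to 1.30% in Tbx20EH1Mut hearts, ranges that overlapped.

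The receptor gene *Igf1r* (chromosome 7, 67952827 to 68233668, plus strand) differed in the other direction from *Igf2*. Wild-type replicates 1 to 4 had 185, 135, 111 and 128 CPM, and Tbx20EH1Mut replicates 1 to 4 had 269, 189.8, 320.0 and 299 CPM. The genotypes did not overlap, but wild-type replicate 1 and Tbx20EH1Mut replicate 2 were nearly level. The means were 139.8 ± 31.8 and 269 ± 57.0 CPM (SD, n = 4 each), and the fitted log2 fold change was 0.95 (standard error 0.197), and 0.84 to 1.10 with 1 library left out.

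*Igfbp3*, which encodes the main carrier of IGFs in the adult circulation, had the largest fitted log2 fold change of the 9 tested members. It measured 27.8, 28.4, 27.0 and 20.4 CPM over wild-type replicates 1 to 4 and 193, 192, 217 and 206 CPM over Tbx20EH1Mut replicates 1 to 4. The lowest Tbx20EH1Mut library lay far above the highest wild-type library. The means were 25.9 ± 3.71 and 202 ± 11.8 CPM (SD, n = 4 each), and the fitted log2 fold change was 2.96 (standard error 0.133). It stayed between 2.86 and 3.02 with 1 library left out and between 2.90 and 3.05 over the 10 other alternatives.

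*Igfbp1*, the neighbour of *Igfbp3*, encodes a binding protein made mainly by liver and decidua. Its raw counts were 3, 1, 0 and 0 over wild-type replicates 1 to 4 and 15, 35, 4 and 0 over Tbx20EH1Mut replicates 1 to 4, so its highest level, in Tbx20EH1Mut replicate 2, was 0.929 CPM. A count of 0 allows up to 0.0598 and 0.0655 CPM in wild-type replicates 3 and 4 and 0.0795 CPM in Tbx20EH1Mut replicate 4, from 3 counts of the library and covering counting error alone. The groups overlapped at 0, and no fold is given. Tbx20EH1Mut replicate 2 was also the library with the highest summed level of 12 hepatic and visceral endoderm markers, 201 CPM, against 13.4 to 49.6 CPM in the other Tbx20EH1Mut libraries and 8.80 to 22.1 CPM in wild-type. Among these markers *Afp* reached 93.8 CPM in that library and *Apoc2* was at 0 in all 8, and their part in the *Igfbp1* counts was not tested.

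*Igfbp2*, an abundant binding protein of embryonic tissues, measured 127, 74.5, 80.4 and 94.9 CPM over wild-type replicates 1 to 4. Over Tbx20EH1Mut replicates 1 to 4 it measured 324, 249, 182 and 250.3 CPM. Every Tbx20EH1Mut library was above every wild-type library, with replicate 1 the highest of each group. The means were 94.3 ± 23.6 and 251 ± 58.2 CPM (SD, n = 4 each), and the fitted log2 fold change was 1.42 (standard error 0.210), and 1.28 to 1.59 with 1 library left out.

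*Igfbp5*, the neighbour of *Igfbp2*, encodes a binding protein that adheres to the extracellular matrix. It measured 785, 1209, 772 and 705 CPM over wild-type replicates 1 to 4 and 667, 604, 867 and 734 CPM over Tbx20EH1Mut replicates 1 to 4. The groups overlapped, and wild-type replicate 2 stood well above the other 7 libraries. The log2 fold change was -0.27 (standard error 0.189), and -0.06 without wild-type replicate 2. Per length of exon the ratio of *Igfbp2* to *Igfbp5* was 0.200 to 0.527 in wild-type and 0.682 to 1.58 in Tbx20EH1Mut hearts, without overlap.

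*Igfbp4* (chromosome 11, 99041244 to 99054392, plus strand) encodes a binding protein that is cut by the protease PAPP-A, which frees its IGF. It measured 417, 316, 329.6 and 349 CPM over wild-type replicates 1 to 4 and 467, 407, 468 and 457 CPM over Tbx20EH1Mut replicates 1 to 4. The groups overlapped through wild-type replicate 1 alone, which exceeded Tbx20EH1Mut replicate 2. The log2 fold change was 0.35 (standard error 0.121), and without wild-type replicate 1 it was 0.44 and the gene was called.

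*Igfbp6* (chromosome 15, 102144362 to 102149511, plus strand), whose product prefers IGF2 over IGF1, was near the limit of detection. It had 8, 12, 0 and 3 counts over wild-type replicates 1 to 4 and 38, 16, 18 and 20 counts over Tbx20EH1Mut replicates 1 to 4. In CPM the wild-type libraries did not exceed 0.244 and the Tbx20EH1Mut libraries began at 0.425, so the groups did not overlap, and the count of 0 in wild-type replicate 3 allows up to 0.0598 CPM. Its log2 fold change of 2.22 had the largest standard error of the family, 0.779, and was 1.10 with the foregut markers as a covariate.

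*Igfbp7* (chromosome 5, 77349240 to 77408041, minus strand), a low-affinity member linked to vessels, measured 11.1, 5.87, 7.63 and 7.68 CPM over wild-type replicates 1 to 4 and 12.7, 9.37, 7.60 and 11.7 CPM over Tbx20EH1Mut replicates 1 to 4. The groups overlapped, with Tbx20EH1Mut replicate 3 below 3 wild-type libraries. The log2 fold change was 0.37 (standard error 0.229), and 0.25 to 0.55 with 1 library left out, highest without wild-type replicate 1. *Igfbp7* shares 85 exon bases, 7.03% of its exon length, with *Polr2b* on the other strand. *Polr2b* had 23831 counts over all libraries, beside 2919 for *Igfbp7*. How many *Igfbp7* counts come from *Polr2b* cannot be told apart without the strand setting.

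**Figure D2:**
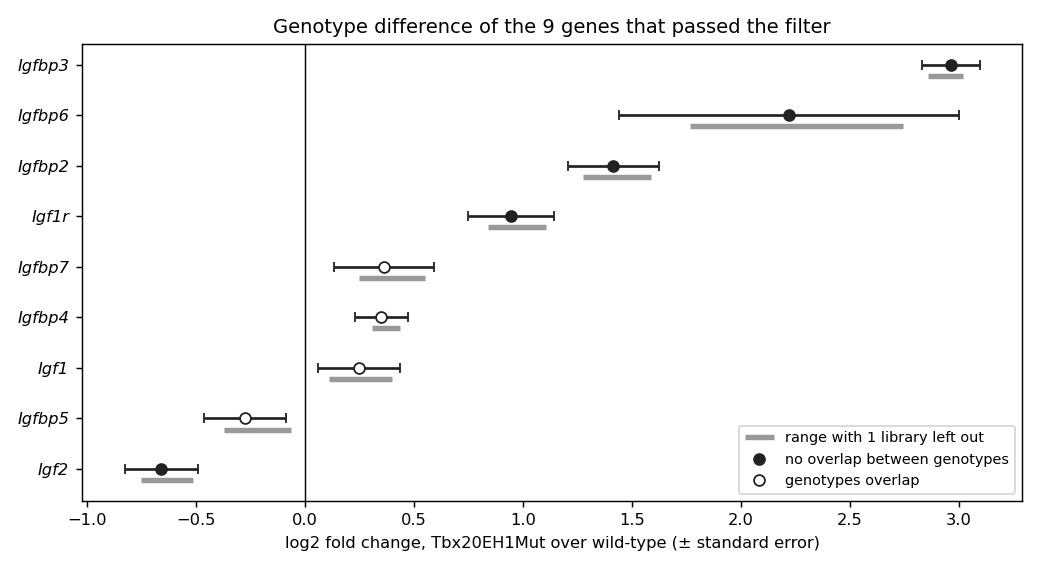
Log2 fold change of Tbx20EH1Mut over wild-type hearts for the 9 IGF genes that passed the filter, with the standard error of the fit (whiskers) and the range over the 8 fits that left out 1 library (grey bars). Filled points mark genes whose libraries did not overlap between the genotypes. Igfbp3 at 2.96 has a narrow range, Igfbp6 at 2.22 a wide one, and Igf2 at -0.66 lies at the other end.

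Some libraries stood out across several members. Wild-type replicate 1 was the highest wild-type library for *Igf1*, *Igf1r*, *Igfbp2*, *Igfbp4* and *Igfbp7* and the lowest for *Igf2*. Without it, *Igf1r* had a log2 fold change of 1.10, *Igfbp2* of 1.59, *Igf1* of 0.40 and *Igf2* of -0.75. *Igfbp4* and *Igfbp6* were then called in addition to the 4 members named above, in a fit that called 37.3% of all genes. Wild-type replicate 1 was also the one wild-type library near the Tbx20EH1Mut side of the first principal component, and its part in these values was not tested beyond leaving it out. Wild-type replicate 2 was the highest wild-type library for *Igf2*, *Igfbp3*, *Igfbp5* and *Igfbp6* and the lowest for *Igf1*, *Igfbp2*, *Igfbp4* and *Igfbp7*. Without replicate 2 the log2 fold change of *Igf2* was -0.51, its smallest difference with 1 library left out, and that of *Igfbp5* was -0.06.

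Levels were compared between genes per kilobase of summed exon length (RPKM on the scaled library size). In wild-type hearts *Igf2* led with 613 ± 116 RPKM, followed by *Igfbp5* with 144 ± 38.3, *Igfbp4* with 79.9 ± 10.2 and *Igfbp2* with 51.0 ± 12.8 RPKM (SD, n = 4 each). *Igf1r*, *Igfbp3* and *Igfbp7* formed the next tier at 8.33 ± 1.89, 8.28 ± 1.19 and 6.67 ± 1.80 RPKM, and neighbours among these 3 overlapped between libraries. Below them came *Igf1* with 2.74 ± 0.581 RPKM, then *Igfbp6* and *Igfbp1*, which overlapped each other near 0.

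In Tbx20EH1Mut hearts the means of the binding proteins fell in another order, but replicate 3 kept *Igfbp5* (144 RPKM) above *Igfbp4* (106 RPKM) and *Igfbp2* (98.4 RPKM), the order of the wild-type means. *Igf2* was again first with 389 ± 57.4 RPKM. *Igfbp2* with 136 ± 31.5, *Igfbp5* with 119.6 ± 18.8 and *Igfbp4* with 102 ± 6.54 RPKM came next, and *Igfbp5* overlapped both of these neighbours. *Igfbp3* followed with 64.5 ± 3.79 RPKM, above *Igf1r* with 16.0 ± 3.40 and *Igfbp7* with 8.57 ± 1.92 RPKM, and none of these 3 overlapped the gene above it. *Igf1* with 3.25 ± 0.731 RPKM preceded *Igfbp6* and *Igfbp1*, as in wild-type.

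The make-up of the binding-protein messages followed from these levels. *Igfbp5* made up 49.4 ± 8.61% of the summed RPKM of the 7 genes in wild-type and 27.8 ± 4.48% in Tbx20EH1Mut hearts (SD, n = 4 each). The share of *Igfbp3* was 2.5 to 3.29% in wild-type and 13.2 to 16.3% in Tbx20EH1Mut hearts, and that of *Igfbp2* 17.7 ± 4.20% and 31.4 ± 6.16%. None of these 3 shares overlapped between the genotypes, while those of *Igfbp4*, 21.9 to 30.3% and 22.7 to 24.9%, and *Igfbp7*, 2.32 ± 0.605% and 1.98 ± 0.361%, did. The sum of the 7 genes was 261 to 327 RPKM in wild-type and 398 to 466 RPKM in Tbx20EH1Mut hearts. Without length scaling the sums overlapped, at 1177 to 1634 CPM in wild-type and 1464 to 1742 CPM in Tbx20EH1Mut hearts. The summed RPKM of both ligands was 1.60 to 2.37 times that of the binding proteins in wild-type libraries and 0.756 to 1.13 times in Tbx20EH1Mut libraries, again without overlap.

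**Figure D3:**
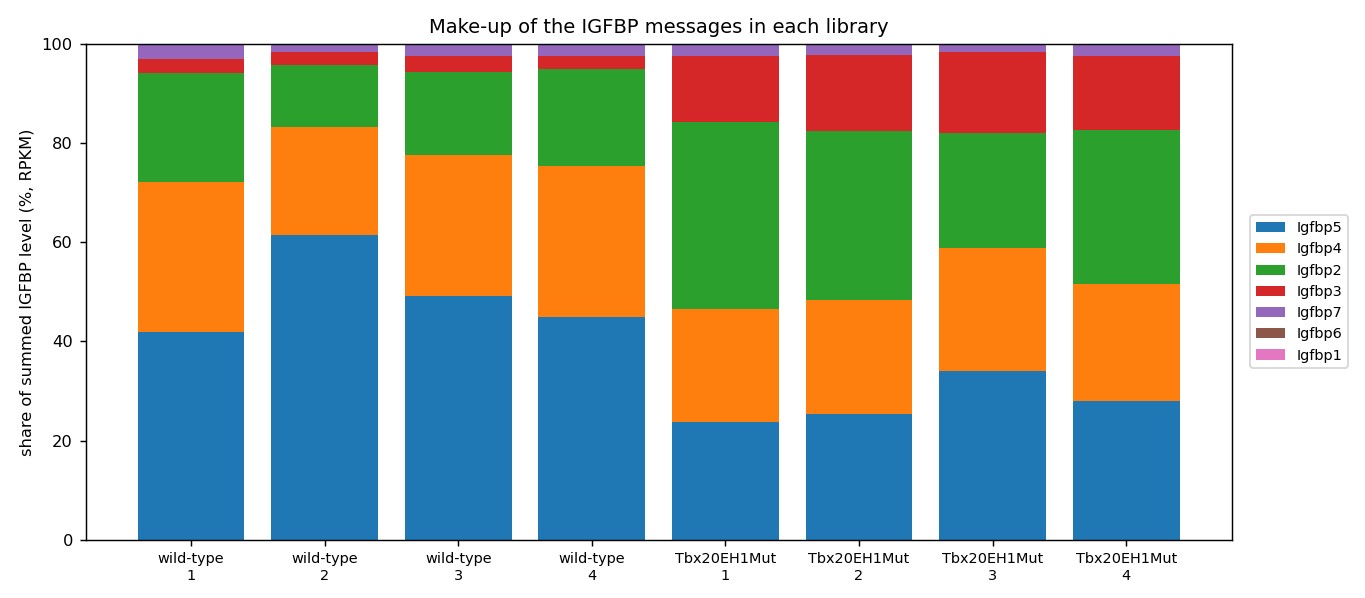
Share of each binding-protein gene in the summed RPKM (counts per kilobase of exon per 1000000 of the scaled library size) of the 7 Igfbp genes, in percent, 1 stacked bar for each library and labelled by genotype and replicate. Igfbp5 (blue) takes 41.8 to 61.5% of each wild-type bar and 23.8 to 34.0% of each Tbx20EH1Mut bar, and Igfbp3 (red) 2.5 to 3.29% and 13.2 to 16.3%. Igfbp6 and Igfbp1 are too low to be seen.

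For the members at both ends of the family, the genes with the most similar pattern over the 8 libraries were looked up among the 10533 genes averaging 5 CPM or more. Likeness was the root mean square difference of log2 CPM after centring each gene on its mean. Closest to *Igfbp3* were *Sparcl1* (0.154), *Fgf8* (0.215) and *A2m* (0.217). *Sparcl1* lay between 11.8 and 16.1 CPM in wild-type and between 84.4 and 99.6 CPM in Tbx20EH1Mut hearts. Closest to *Igf2* were *Rbm10* (0.0432), *Syk* (0.0495) and *Git1* (0.0525). *Rbm10* was 74.1, 113, 88.3 and 88.5 CPM over wild-type replicates 1 to 4 and 66.5, 64.3, 48.3 and 54.9 CPM over Tbx20EH1Mut replicates 1 to 4, so it shared with *Igf2* the low wild-type replicate 1 and the high wild-type replicate 2.

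The genes around the family were taken from 8 lists with 85 genes outside the 10 members, of which 79 were tested. In Tbx20EH1Mut hearts 20 were higher and 8 lower, and 51 were not called. The share called was 35.4%, beside 29.3% of all genes, and the median log2 fold change was -0.09. Without wild-type replicate 3, wild-type replicate 4 or Tbx20EH1Mut replicate 4 the calls dropped to 15, 17 and 18. Over all genes those fits gave 3061, 3001 and 3028 calls, against 5024 with all libraries. Leaving out wild-type replicate 1 gave 39 pathway calls (21 higher, 18 lower), where 37.3% of all genes were called. With foregut marker level as a covariate there were 40 (16 higher, 24 lower), where 32.8% of all genes were called. Where a list has called genes beyond the rule for naming them, those were named after their values were seen.

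Stanniocalcins, secreted inhibitors of the PAPP-A proteases that cut IGFBPs, had the largest differences in the list of IGFBP proteases and their inhibitors. *Stc2* rose from 8.71, 9.59, 7.61 and 7.62 CPM over wild-type replicates 1 to 4 to 79.5, 63.7, 29.98 and 43.3 CPM over Tbx20EH1Mut replicates 1 to 4 (log2 fold change 2.69, standard error 0.275, edgeR adjusted p = 0.000215). *Stc1*, at 7.52 ± 3.15 CPM in wild-type, rose to 45.9 ± 10.2 CPM (log2 fold change 2.62 with a standard error of 0.287, edgeR adjusted p = 0.000316). In both genes the lowest Tbx20EH1Mut library was above the highest wild-type library. The serine protease gene *Htra1* rose as well, with a log2 fold change of 1.02 (edgeR adjusted p = 0.00309). Of the 9 genes tested here 3 were higher, beside 14.0% of all genes tested, and nothing is read from so short a list. The other 6 tested genes of this list were not called, among them the protease gene *Pappa* at 7.38 and 6.18 CPM (log2 fold change -0.26, standard error 0.269, edgeR adjusted p = 0.491), and *Pappa2* was not tested.

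Among other ligands and receptors of the insulin family, *Igfbpl1*, which encodes an IGFBP-like protein, rose from 77.7 ± 11.1 to 170.0 ± 34.8 CPM (log2 fold change 1.13, edgeR adjusted p = 0.00139). The insulin receptor gene *Insr* rose from 39.4 ± 7.24 to 57.7 ± 4.23 CPM (log2 fold change 0.55, edgeR adjusted p = 0.0149), but was not called without wild-type replicate 3 or 4 (adjusted p = 0.0569 and 0.0503), nor with foregut markers as a covariate, where the log2 fold change was 0.25. *Igf2r*, whose product takes up IGF2 for breakdown, was 1084 CPM in wild-type and 736 CPM in Tbx20EH1Mut hearts and was not called (log2 fold change -0.56, standard error 0.209, edgeR adjusted p = 0.0676). *Ins1* was at 0 in every library, and it, *Ins2* and the other 3 genes of this list were not tested.

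Inside the cell, the list of PI3K and AKT signalling genes had 4 of 11 tested genes lower and 1 higher in Tbx20EH1Mut hearts. Over all genes tested 15.3% were lower and 14.0% higher, and with a list this short nothing is read from the count. Its median log2 fold change was -0.50. *Pik3r3*, a regulatory subunit of PI3K, fell from 20.6 ± 4.58 to 8.35 ± 0.948 CPM (log2 fold change -1.30, edgeR adjusted p = 0.000866). *Akt1*, which encodes a kinase downstream of PI3K, fell from 276 ± 49.6 to 162 ± 33.7 CPM (log2 fold change -0.77, edgeR adjusted p = 0.0115). The other genes that fell were *Akt2* (-0.69), whose groups overlapped, and *Pik3cb* (-0.58), whose groups did not. With foregut markers as a covariate the value of *Akt1* was -1.16. *Pik3r1*, another regulatory subunit, rose from 18.1 ± 0.978 to 23.9 ± 1.04 CPM (log2 fold change 0.40, edgeR adjusted p = 0.017), but was not called without wild-type replicate 3 or 4 or Tbx20EH1Mut replicate 4 (adjusted p of 0.0526 to 0.0621), nor in 4 of the 10 alternatives that kept all libraries (up to 0.157).

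Of 14 tested genes of TOR and translation control, 2 rose and 2 fell. Beside 29.3% of all genes tested called in either direction, nothing is read from this count. *Ddit4*, an inhibitor of TOR signalling, rose from 33.8, 22.9, 28.3 and 29.5 CPM over wild-type replicates 1 to 4 to 347, 313, 167 and 228 CPM over Tbx20EH1Mut replicates 1 to 4 (log2 fold change 3.20, standard error 0.237, edgeR adjusted p = 3.74e-05). *Eif4ebp1*, a repressor of translation that TOR inactivates, rose from 181 ± 33.4 to 277 ± 6.22 CPM (log2 fold change 0.61, edgeR adjusted p = 0.00969). *Mtor* fell from 46.3 ± 17.9 to 25.4 ± 4.16 CPM (log2 fold change -0.86, edgeR adjusted p = 0.0255), and *Tsc2*, part of the complex that restrains TOR, from 62.0 ± 22.2 to 34.3 ± 11.3 CPM (log2 fold change -0.85, edgeR adjusted p = 0.0459). The genotypes overlapped in *Tsc2*, and both genes were highest in wild-type replicate 2. When it was left out, *Mtor* had a log2 fold change of -0.56 and *Tsc2* of -0.57, and *Tsc2* was not called (adjusted p = 0.121). *Mtor* was also not called without replicate 3 of either genotype or Tbx20EH1Mut replicate 4 (0.0509 to 0.0736), and *Tsc2* was called in only 2 of the 8 fits with 1 library left out, those without wild-type replicate 1 or Tbx20EH1Mut replicate 1, and in 8 of 10 alternatives with all libraries. With foregut markers as a covariate the log2 fold change was -1.52 for *Mtor* and -1.69 for *Tsc2*.

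AKT signalling is known to hold down FOXO factors as proteins, and this list covers the messages of those factors and of genes that respond to them. In Tbx20EH1Mut hearts 6 of its 12 tested genes were higher and none lower. Of all genes tested, 14.0% were higher and 15.3% lower, and with a list this short nothing is read from the count. The median log2 fold change of the list was 0.51. *Ccng2*, which encodes cyclin G2, rose from 29.2 ± 2.45 to 81.0 ± 0.714 CPM (log2 fold change 1.47, edgeR adjusted p = 2.19e-05). *Foxo3* rose from 33.1 ± 5.33 to 76.4 ± 5.19 CPM (log2 fold change 1.21, edgeR adjusted p = 0.000265). *Cdkn1b*, *Cited2*, *Sesn1* and *Foxo1* rose with log2 fold changes of 0.82, 0.55, 0.51 and 0.50. *Foxo4*, *Sesn3* and the other 4 genes were not called.

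Of 12 tested receptor adaptors and of 6 IGF2 mRNA-binding proteins and their regulators, 1 each was called, where 29.3% of all genes tested were called, and with lists this short nothing is read from these counts. Among the adaptors *Grb14* fell from 61.7 ± 6.31 to 35.6 ± 4.38 CPM (log2 fold change -0.79, edgeR adjusted p = 0.00186). *Irs1*, the adaptor that links the receptor to PI3K, was 10.8 CPM in wild-type and 4.49 CPM in Tbx20EH1Mut hearts and was not called (log2 fold change -1.27, standard error 0.455, edgeR adjusted p = 0.0598). Among the mRNA-binding proteins and their regulators *Hmga2* rose from 389 ± 29.9 to 539 ± 65.9 CPM (log2 fold change 0.47, edgeR adjusted p = 0.0184) but was not called without wild-type replicate 3 or 4 (adjusted p = 0.065 and 0.0727), nor in 2 of the 10 alternatives with all libraries (up to 0.0647). *Igf2bp1*, *Igf2bp2* and *Igf2bp3* had log2 fold changes of -0.12, 0.06 and 0.03 and were not called.

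Imprinted growth genes were called in both directions. Of 12 tested, 5 rose and *H19* fell, beside 14.0% higher and 15.3% lower of all genes tested. With a list this short nothing is read from these counts. *Meg3*, an imprinted non-coding RNA, rose from 446 ± 90.4 to 984 ± 205 CPM (log2 fold change 1.14, edgeR adjusted p = 0.00255). *Dlk1*, its neighbour expressed from the paternal copy, rose from 102 ± 22.9 to 193 ± 62.5 CPM (log2 fold change 0.92, edgeR adjusted p = 0.0197), but its groups overlapped, it was not called without wild-type replicate 3 or 4 (adjusted p = 0.0607 and 0.053), and with marker levels as a covariate its log2 fold change was 0.14 (foregut) or 0.52 (hepatic) and the gene was not called. *Nnat*, *Plagl1* and *Peg3* rose with log2 fold changes of 0.87, 0.64 and 0.62.

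**Figure D4:**
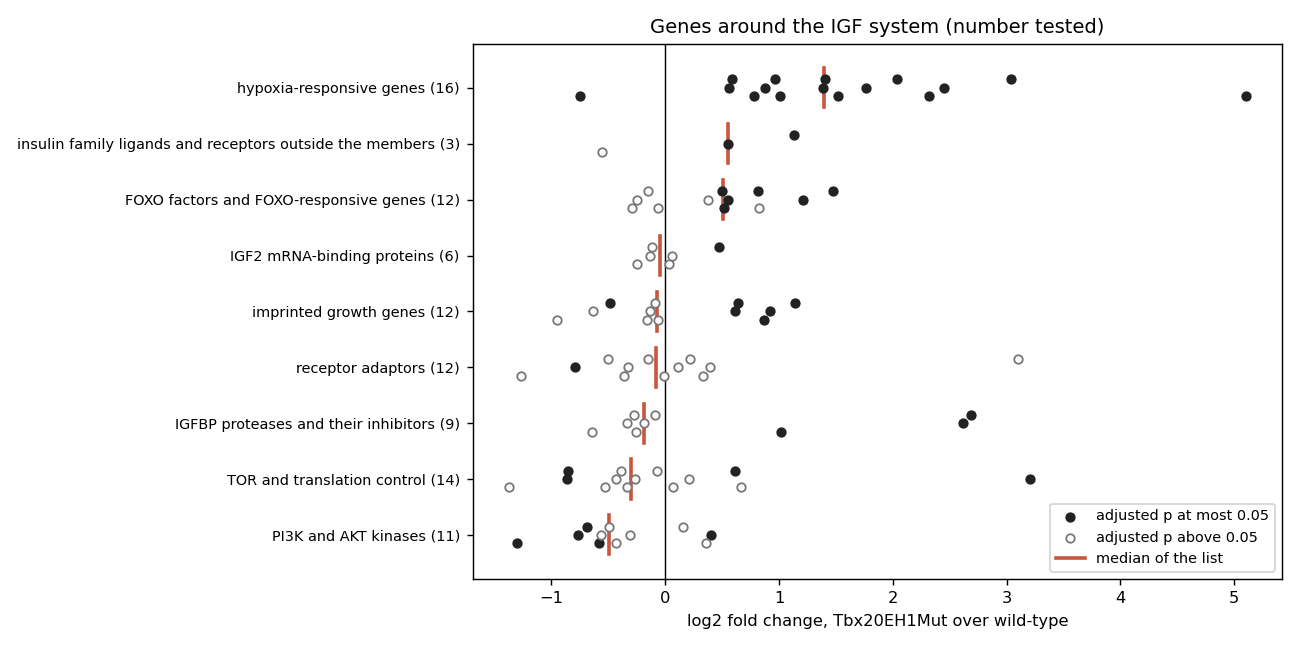
Log2 fold change of Tbx20EH1Mut over wild-type hearts for each tested gene of the lists around the IGF family and of a list of hypoxia-responsive genes, with the number tested in parentheses. Filled points have an adjusted p of at most 0.05 (edgeR), open points do not, and the red bar is the list's median. The hypoxia-responsive genes have a median of 1.40, the insulin family list one of 0.55 and the FOXO list one of 0.51. The TOR list has a median of -0.30 and the PI3K and AKT list one of -0.50. The other lists have medians of -0.18 to -0.04, and the median of all genes tested is 0.00.

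Summed levels of marker lists of other cell states and cell types differed with genotype beside these results, and their part in them was not tested. Beside the counts of called markers below, 14.0% of all genes tested were higher and 15.3% lower in Tbx20EH1Mut hearts. Of 16 hypoxia-responsive genes 15 were higher and 1, *Pfkfb4* (log2 fold change -0.75, edgeR adjusted p = 0.0312), was lower in Tbx20EH1Mut hearts, with *Ndufa4l2* from 3.41 ± 1.18 to 116 ± 12.6 CPM and *Ndrg1* from 3.45 ± 0.850 to 28.2 ± 11.5 CPM. Their summed level was 6479 to 7472 CPM in wild-type and 11480 to 12612 CPM in Tbx20EH1Mut hearts. The lists were chosen with earlier results of these data known, so no support is drawn from the permutation tests of the sums. With 4 libraries in each group, sums without overlap always give the smallest p. The exact two-sided permutation test over 70 arrangements gave p = 0.0286, the smallest it can give. The adjusted p was 0.0476 over these 10 lists. Over all 18 lists whose sums were permuted, the 8 lists around the IGF family included, it was 0.0643, above 0.05. The same 3 values held for the foregut epithelium markers (6 of 12 higher, 191 to 303 CPM against 659 to 916 CPM, none at 0 in any library) and for the erythroid markers (9 of 10 lower, 1885 to 4991 CPM against 371 to 1122 CPM). They also held for epicardium and proepicardium (3 of 9 tested higher, 145 to 302 CPM against 438 to 499 CPM), endothelium and endocardium (5 of 10 higher, 689.6 to 860 CPM against 905 to 989 CPM) and somite mesoderm (2 of 5 tested higher, 37.3 to 50.4 CPM against 76.6 to 91.6 CPM, *Uncx* at 0 in all 8 libraries). *Krt8* and *Krt18* made up most of the foregut sum and, with *Shh*, were the foregut markers called without overlap between the genotypes. *Epcam*, *Cldn7* and *Foxa2* were called higher but overlapped, *Epcam* with 15.3 CPM in wild-type replicate 2 and 10.7 CPM in Tbx20EH1Mut replicate 3. *Cdh1*, *Cldn6*, *Foxa1*, *Sox2*, *Nkx2-1* and *Spint1* were not called and overlapped. Within the epicardium and proepicardium list *Krt19* and *Wt1* made up most of the sum and were higher in Tbx20EH1Mut hearts. *Aldh1a2* was also called higher (log2 fold change 1.35, edgeR adjusted p = 0.0498), but its groups overlapped. *Lhx2* (0.79) was not called and overlapped. *Tbx18*, *Tcf21*, *Upk3b*, *Upk1b* and *Sema3d* had log2 fold changes of -0.59 to -0.02, were not called and overlapped. The median log2 fold change of the list was -0.02. The somite sum was carried by *Foxc2*, with means of 37.8 CPM for wild-type and 67.3 CPM for Tbx20EH1Mut hearts.

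With library size alone as the scaling, the p of the endothelium and endocardium markers was 0.0571. *Pfkfb4* was called in only 3 of the 8 fits with 1 library left out (adjusted p of up to 0.0885) and in 9 of 10 alternatives with all libraries. The cardiomyocyte, hepatic and visceral endoderm, neural tube and neural crest lists did not separate the genotypes by their sums. Within the cardiomyocyte list 2 of 10 markers fell, *Myh6* (log2 fold change -1.26, edgeR adjusted p = 0.000866) and *Nppa* (log2 fold change -1.67, edgeR adjusted p = 0.000394), both without overlap between the genotypes. The exact permutation test gave p = 0.229 for the hepatic and visceral endoderm markers (3 of 9 tested higher), p = 0.314 for the neural tube (2 of 7 higher, 1 lower) and p = 0.971 for the neural crest and pharyngeal arch (1 of 8 higher, 1 lower). Wild-type replicate 1, which stood out among the IGF genes, had the highest epicardium and proepicardium level of its group, 302 CPM against 145 to 179 CPM. In a fit with the foregut markers as a covariate the same 4 members were called, where 32.8% of all genes were called. The log2 fold changes were 1.09 for *Igf1r* and -1.09 for *Igf2*, and those of *Igfbp5* and *Igfbp7* were -0.48 and 0.56. The foregut markers themselves differed with genotype, with a median log2 fold change of 2.39, so this fit cannot tell their level apart from genotype.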

How the data were processed

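RNA was extracted from dissected E9.5 hearts, poly-A selected and sequenced (paired-end) at a company, 3 pooled hearts to a library. The authors deposited 1 table of raw counts per library, whole numbers per Ensembl gene, not normalized, with the summed exon length. The submitters' processing notes name Trimmomatic 0.36, STAR 2.5.2b and GRCm38. The counting tool and strand setting are not given in the sources used here. Gene identifiers were matched to symbols in GENCODE M21 (48970 of 49315, with identical start and end for 91.4% of these), and members and listed genes by symbol.

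Differences between libraries of a genotype exceeded sampling noise, and each library is 1 replicate. Genes were fitted with edgeR 4.0.16 in R 4.3.3 (filterByExpr, TMM, glmQLFit and glmQLFTest, genotype as the only term), with Benjamini-Hochberg adjustment over 17163 genes and a call at an adjusted p of at most 0.05. The steps were tested on simulated data. CPM used scaled library sizes, RPKM the deposited exon lengths, and log2 CPM for likeness a pseudocount of 0.5. For summed marker levels the test was an exact two-sided permutation over 70 arrangements. Totals of 33359322 to 49523086 counts per library leave genes near or below 1 CPM the least precise. Promoters, 250 bases upstream of each start, came from RefSeq (GRCm38.p6). Python 3.11.15, numpy 2.4.6, pandas 2.3.3 and matplotlib 3.10.9 were used.

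The members, gene lists and tests were chosen with earlier results of these data known, and 1 listed gene is not reported here. The text names all members, *Tbx20*, *H19* and *Ins2*, genes whose exons overlap a member's, the 3 genes most like the members at both extremes (mean of at least 5 CPM), and from each list up to 2 called genes with the largest rise and 2 with the largest fall (mean of at least 1 CPM). Alternatives were RLE, upper-quartile or no scaling, DESeq2 1.42.0, limma-voom (limma 3.58.1), a replicate block, a filter of at least 1 count in all or of 10 counts or more in each library, foregut or hepatic marker level as a covariate, and leaving out each library in turn. For levels per length, the alternative was CPM on the same scaled library sizes, with no length scaling.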

Additional observations from a re-analysis of the deposited data

Results flagged for a closer look

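In 41 named genes, the 4 libraries of each genotype were examined for a single value far from the other 3, by Dixon's test at the 95% level, and 4 of 82 groups were marked. Chance marks about 1 in 20 such groups. *Igfbp5* in wild-type replicate 2 was 1209 CPM against 705 to 785 CPM in the other wild-type libraries. The receptor adaptor gene *Grb14* was marked in both genotypes, in wild-type replicate 3 with 71.1 CPM against 57.7 to 59.4 CPM and in Tbx20EH1Mut replicate 1 with 29.1 CPM against 37.3 to 38.5 CPM. *Ins2* was 0.053 CPM in Tbx20EH1Mut replicate 4 and 0 in the other Tbx20EH1Mut libraries.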

How the results depend on the processing

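No direction reversed in the 9 tested members, *Tbx20* or the tested genes named by rule under the 10 alternatives with all libraries (9 for *Igfbp6*, which the filter of 10 counts removed) or the 8 that left out 1. Genes named after their values were seen were not tabulated under the alternatives. The members called were 4 of 9 tested with the fit as reported and 3 to 6 of 9 with 1 library left out (3 to 5 higher, 0 to 1 lower). Those fits called 29.3% and 17.0 to 37.3% of all genes. DESeq2 called 7 of 10 members (6 higher), adding *Igfbp1*, *Igfbp4* and *Igfbp6*, and 20.7% of all genes. Upper-quartile scaling and limma-voom each gave 5 higher members of 9 tested, adding *Igfbp4* and *Igfbp6*, with 28.3% and 30.4% of all genes called. A filter of 10 counts in every library gave 5 of 8 members in all, adding *Igfbp4*, with 33.8% of all genes called. Nothing is read from these counts. Of all genes, 3001 to 6586 were called with 1 library left out (1436 to 3237 higher, 1496 to 3349 lower), and of the 79 pathway genes 15 to 39 (11 to 23 higher, 4 to 18 lower). The lowest counts over all genes came without wild-type replicate 4, Tbx20EH1Mut replicate 4 or wild-type replicate 3, and the highest without wild-type replicate 1. Among pathway genes, 13 were lower with DESeq2 and 24 with foregut marker level as a covariate, against 8 as reported, and the cause was not tested. Over all genes 3269, 2970 and 2618 were lower in these fits, in that order. Upper-quartile scaling placed 58.9% of all calls on the higher side against 47.9% as reported, and moved the median log2 fold change of all genes from 0.00 to 0.09. Same-numbered libraries deviated together with correlations of -0.24, 0.32, 0.05 and 0.06, so the numbers were not taken to pair them. A replicate block gave 3945 genes, 4 members and 26 pathway genes. Without scaling by length, the summed level of the binding proteins overlapped between the genotypes, the *Igfbp3* share was 1.93% in wild-type and 12.4% in Tbx20EH1Mut hearts and that of *Igfbp5* 63.7% and 43.8%. Counts below about 40 per library limit *Igfbp1* and *Igfbp6*.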
